A study of Homo sapiens with 18 samples.

Results

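The 8 genes followed here belong to the autophagy core. They are 6 human ATG8 genes (GABARAP, GABARAPL1, GABARAPL2, MAP1LC3A, MAP1LC3B and MAP1LC3B2), the cargo receptor gene SQSTM1 (p62) and the kinase gene ULK1. Further ATG8 genes were not looked for. They were taken by symbol from 61860 gene rows, all 8 were found, and all 8 were among the 16760 genes that passed the filter on low counts. The set was chosen by a measured value: GABARAPL2 was among the genes that fell most in NAT10 knockdown cells before any drug was given. The difference between knockdown and control at 0 h is therefore given below as a description, with no test. The rule did not use the libraries taken at 1.5 and 3.5 h, though earlier results of these data were known. With transcription blocked, the later libraries still hold RNA made before the block. A gap seen there is therefore not independent of the gap at 0 h. In every one of those later libraries GABARAPL2 remained far below the control and SQSTM1 far above it, and the mean log2 differences of the other 6 genes were at most 0.73 relative to the typical transcript.

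Autophagy encloses cytoplasm in a double membrane, the autophagosome, and delivers it to the lysosome. The kinase ULK1 starts the process. ATG8 proteins are small ubiquitin-like proteins that are trimmed after a glycine by ATG4 proteases and joined through that glycine to a membrane lipid, where they help the membrane grow and close and hold cargo receptors. They form an LC3 branch (the MAP1LC3 genes) and a GABARAP branch. SQSTM1 binds ubiquitin on cargo and ATG8 proteins on the membrane and is itself degraded in the lysosome. It also binds KEAP1, the adaptor that targets the transcription factor NRF2 for degradation, and SQSTM1 is in turn an NRF2 target gene. Transcript levels, which are all that was measured here, are not a measure of autophagic flux.

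The series asks, by its design text, how RNA stability compares between control and NAT10 knockdown human embryonic stem cells, NAT10 being the enzyme that acetylates cytidine in RNA. All groups are H1 cells, an established embryonic stem cell line, transduced with lentivirus that carries GFP, enriched for GFP-positive cells and expanded in TeSR-E8 medium with puromycin. The groups labelled sh control received a negative control shRNA and the knockdown groups an shRNA against NAT10, and each was sampled after 0, 1.5 and 3.5 h of actinomycin D, which blocks transcription, with 3 libraries in each of the 6 groups. The labels do not say how many hairpins were used, whether cells were cloned or whether replicate libraries are separate cultures. The p-values therefore measure the spread between the libraries sampled, which could be technical. Those under scaling to spike-in RNA have a further limit, given below.

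Libraries held 15037492 to 15519197 counts. NAT10 itself stood at 210 ± 1.13 CPM (a gene's count relative to the TMM-scaled total of its library) in control and 21.9 ± 1.94 CPM in knockdown at 0 h (SD, n = 3 each). All 12 markers of embryonic stem cells averaged at least 5 CPM in every group. At 0 h their summed level ran from 12678 to 13209 CPM in control and from 10713 to 11211 CPM in knockdown, which do not overlap. The markers did not move as one. LIN28A averaged 2030 CPM in control and 1493 CPM in knockdown, L1TD1 1574 and 1075, PODXL 2213 and 1858 and SOX2 61.5 and 44.0. POU5F1 (397 and 390), NANOG (19.2 and 20.4) and LIN28B (244.9 and 251.1) were near equal. The first knockdown library at 0 h stood apart from its 2 replicates, with a chi-square per degree of freedom of 15.1 and 21.6 against them, where the other replicate pairs of the series lay between 1.39 and 6.99. Differences of GABARAPL2, SQSTM1 and MAP1LC3A at 0 h are therefore given with and without it. As in any bulk sample, fewer cells of a type and less RNA per cell cannot be told apart.

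The ATG8 genes share the end that is joined to the membrane, which is shown here because it marks the family and because 2 of the genes are near copies of each other. The last 60 coding bases of each gene's principal transcript in GENCODE v29 read as follows (5′ to 3′, coding strand, without the stop codon), with the codon of the last glycine in capitals.
GABARAP, chr17:7240857-7240916, minus strand: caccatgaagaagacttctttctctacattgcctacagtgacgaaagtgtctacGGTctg
GABARAPL1, chr12:10221790-10221849, plus strand: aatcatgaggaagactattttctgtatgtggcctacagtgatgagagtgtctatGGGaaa
GABARAPL2, chr16:75577307-75577366, plus strand: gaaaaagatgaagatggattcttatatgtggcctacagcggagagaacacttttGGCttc
MAP1LC3A, chr20:34559836-34559895, plus strand: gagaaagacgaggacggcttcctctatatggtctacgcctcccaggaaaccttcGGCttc
MAP1LC3B, chr16:87403035-87403094, plus strand: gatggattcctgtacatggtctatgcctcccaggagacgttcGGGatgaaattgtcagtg
MAP1LC3B2, chr12:116576258-116576317, plus strand: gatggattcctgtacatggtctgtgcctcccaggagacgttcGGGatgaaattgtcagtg
Coordinates are on GRCh38. The glycine codon is followed by 1 codon in the 3 GABARAP genes and in MAP1LC3A and by 5 codons in MAP1LC3B and MAP1LC3B2.

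Over the whole coding sequence GABARAP and GABARAPL1 were identical at 76.6% of aligned positions, and GABARAPL2 stood further off, at 62.1% with GABARAP and 61.8% with GABARAPL1. MAP1LC3A and MAP1LC3B were identical at 71.2%, and genes of different branches at 48.9% to 54.1%. Each gene spans a few kilobases or more: GABARAP lies on chromosome 17 from 7240014 to 7242770, GABARAPL1 on chromosome 12 from 10212458 to 10223130, GABARAPL2 on chromosome 16 from 75566351 to 75577881, and MAP1LC3B further along chromosome 16, from 87383995 to 87404779. MAP1LC3A lies on chromosome 20 from 34546854 to 34560345, SQSTM1 on chromosome 5 from 179806398 to 179838078 and ULK1 on chromosome 12 from 131894651 to 131923167. GABARAPL2, SQSTM1, ULK1 and MAP1LC3A shared no exact stretch of 100 bases of transcript with another annotated gene. Shorter or inexact matches were not examined.

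The counts of 2 members are less certain than those of the others. MAP1LC3B2 (chromosome 12, 116548105 to 116576448) has a single coding exon that matches the MAP1LC3B coding sequence at 99.5%, with the substitutions C30G and A338G between them, counted from the first base of the start codon with the MAP1LC3B base first. Of the 100-base words in its principal transcript 37.1% also occurred in MAP1LC3B. GABARAP shares 691 exonic bases on the same strand with the protein-coding readthrough gene AC120057.2, which is 42.3% of its principal transcript. AC120057.2 had 0 counts in all 18 libraries, and how reads in the shared bases were counted is not given in the sources used here. GABARAP had 77 to 158 counts per group of 3 libraries and MAP1LC3B2 had 44 to 67, against 521 to 13977 for GABARAPL2, SQSTM1, ULK1, GABARAPL1 and MAP1LC3B. SQSTM1 shares 20.7% of its exonic bases with MRNIP on the opposite strand, and MRNIP had 4469 counts over the 18 libraries, while SQSTM1 had between 2332 and 13977 in each group.

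Compared per kilobase of exon, GABARAPL1 and GABARAPL2 were the leading ATG8 transcripts of control cells at 0 h. GABARAPL1 stood at 20.3 ± 0.545 CPM per kilobase, GABARAPL2 at 16.1 ± 1.90 and MAP1LC3B at 12.2 ± 0.969 (SD, n = 3 each). SQSTM1 followed at 10.7 ± 0.394 and ULK1 at 10.1 ± 0.948, and these neighbours overlapped. MAP1LC3A (3.30 ± 0.578), GABARAP (1.15 ± 0.0740) and MAP1LC3B2 (0.54 ± 0.202) were lower. With the lengths implied by the authors' deposited signal in place of exon lengths, the order of the 8 was the same, but MAP1LC3A stood at 5.04 ± 0.885 and GABARAP at 1.34 ± 0.0859. By exon length, only SQSTM1 and ULK1 had replicate ranges that overlapped.

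In knockdown cells at 0 h the order was another one. SQSTM1 led with 31.5 ± 4.4 CPM per kilobase, followed by GABARAPL1 at 26.6 ± 1.95. They overlapped through the first knockdown library alone, at 26.5 for SQSTM1, as its other 2 libraries, at 33.1 and 34.9, lay above the highest GABARAPL1 library at 28.4. MAP1LC3B (12.9 ± 0.986) overlapped ULK1 (11.1 ± 2.31), and GABARAPL2 now stood at 3.38 ± 0.365, below MAP1LC3A at 4.32 ± 0.917. These 2 also overlapped through the first knockdown library alone, at 3.26 for MAP1LC3A, and did not overlap with the lengths of the authors' deposited signal, where MAP1LC3A stood at 6.60 ± 1.40 and GABARAPL2 at 3.40 ± 0.368. GABARAP (1.34 ± 0.0599) and MAP1LC3B2 (0.71 ± 0.0796) remained at the bottom. The mean of GABARAPL2 thus went from above those of MAP1LC3B and MAP1LC3A to below both, and this pattern at 0 h is the one by which the genes were picked.

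**Figure D1:**
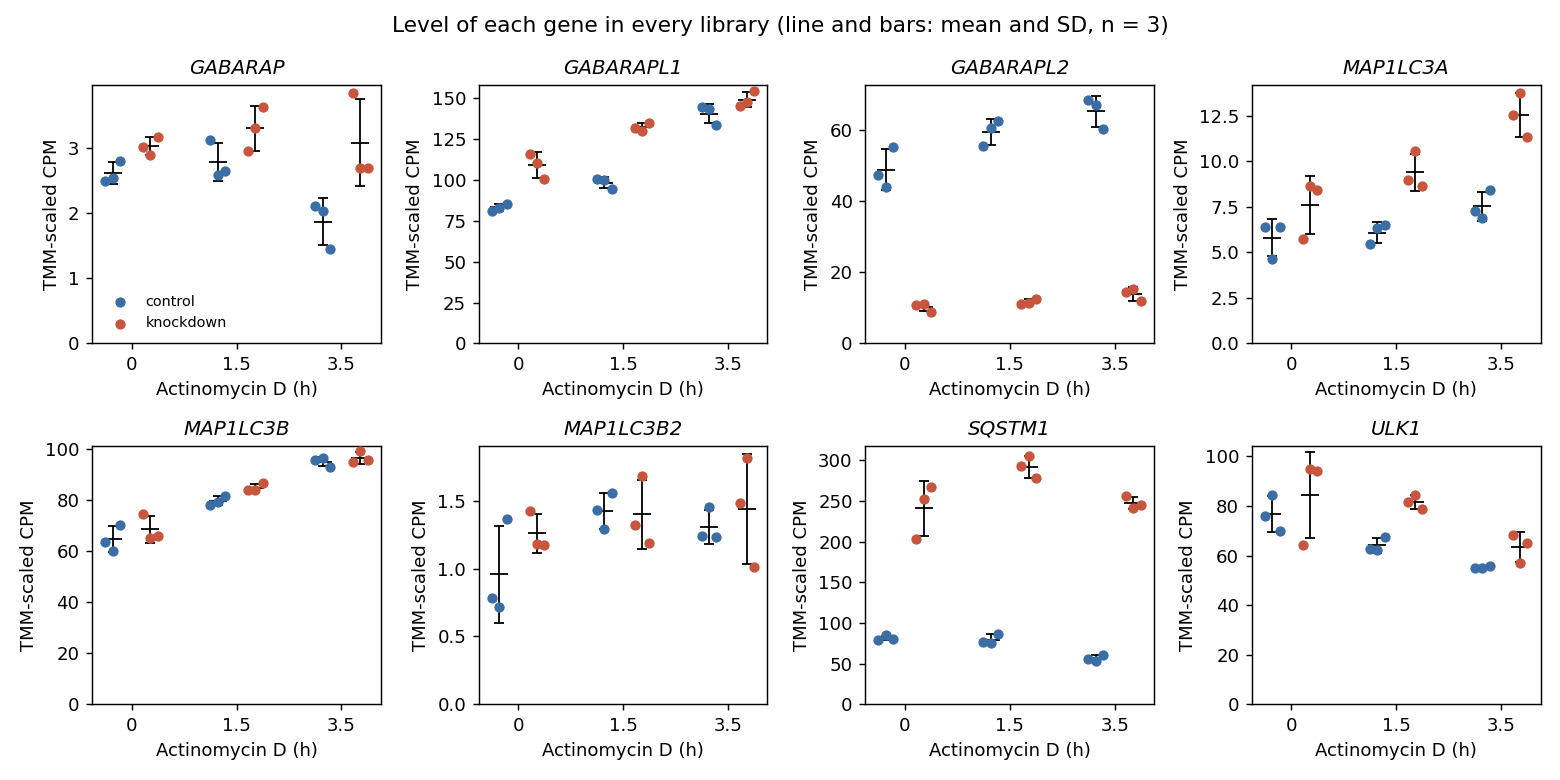
Level of each gene in every library as TMM-scaled CPM, from 0, against hours of actinomycin D, with control in blue and knockdown in red and with the mean and SD of 3 libraries in black. The 9 knockdown points of GABARAPL2 lie between 8.97 and 15.4 CPM and the 9 control points between 44.0 and 68.4, while those of SQSTM1 lie between 202.8 and 304.8 against 53.0 to 87.0.

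GABARAPL2, the GABARAP-branch protein also known as GATE-16, was low in knockdown cells at every time. At 0 h the control libraries held 47.4, 44.0 and 55.2 CPM and the knockdown libraries 10.8, 11 and 8.97 CPM, a log2 difference of -2.25 ± 0.104 (SE), or -2.30 ± 0.109 without the first knockdown library. At 1.5 h the control libraries held 55.5, 60.6 and 62.4 CPM and the knockdown libraries 11.1, 11.3 and 12.6 CPM. At 3.5 h they held 68.4, 67.0 and 60.3 CPM against 14.4, 15.4 and 11.9 CPM. The groups did not overlap at any time, and the highest knockdown library was far below the lowest control library. The level was lower by 2.35 ± 0.103 on the log2 scale at 1.5 h (edgeR quasi-likelihood test, adjusted p = 4.77e-15) and by 2.23 ± 0.101 at 3.5 h (adjusted p = 7.03e-15), which is 5.10 and 4.69 times less than in control. As RNA made before the block is still present at these times, the tests are not separate support for the gap at 0 h.

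SQSTM1 moved the other way. At 0 h its libraries held 79.6, 85.0 and 80.0 CPM in control and 202.8, 253.0 and 266.8 CPM in knockdown, a log2 difference of 1.56 ± 0.081, or 1.67 ± 0.057 without the first knockdown library, which is the lowest of the 3. At 1.5 h the control libraries held 76.2, 75.1 and 87.0 CPM and the knockdown libraries 293.0, 304.8 and 277.7 CPM. At 3.5 h they held 55.6, 53.0 and 61.0 CPM against 255.6, 241.3 and 244.9 CPM. Here too no knockdown library came near a control library. SQSTM1 rose by 1.88 ± 0.081 at 1.5 h (adjusted p = 4.08e-15) and by 2.13 ± 0.084 at 3.5 h (adjusted p = 5.26e-16), which is 3.67 and 4.37 times the control level.

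The remaining genes differed less. At 1.5 h 5 of the 8 members passed the test (4 higher, 1 lower), in a comparison in which 54.6% of all 16760 genes did (28.4% higher, 26.2% lower), and at 3.5 h 4 of 8 passed (3 higher, 1 lower), where 61.4% of all genes did (35% higher, 26.4% lower). The shares of members are near those of all genes. The median log2 difference of the members was 0.30 at 1.5 h and 0.17 at 3.5 h, beside 0.03 and 0.08 for all genes. What sets GABARAPL2 and SQSTM1 off from the other members is the size of the difference.

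MAP1LC3A, an LC3 gene with a lower level than MAP1LC3B, was higher in knockdown at both later times. At 1.5 h its libraries held 5.44, 6.32 and 6.51 CPM in control and 8.99, 10.5 and 8.65 CPM in knockdown, and at 3.5 h 7.29, 6.90 and 8.43 CPM against 12.6, 13.7 and 11.3 CPM. The groups did not overlap at either time. It rose by 0.63 ± 0.151 (adjusted p = 0.00118) and by 0.73 ± 0.143 (adjusted p = 1.08e-04). At 0 h the log2 difference was 0.39 ± 0.154, with the first knockdown library, at 5.74 CPM, inside the control range of 4.63 to 6.41 CPM, and 0.55 ± 0.140 without that library.

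GABARAPL1, the highest of the 6 ATG8 genes followed, held 101, 100.1 and 94.1 CPM in control and 132, 130 and 135 CPM in knockdown at 1.5 h. The groups did not overlap, and GABARAPL1 rose by 0.43 ± 0.058 (adjusted p = 1.09e-06). At 3.5 h its control libraries held 144, 143 and 134 CPM and its knockdown libraries 145, 148 and 154 CPM. The gap had closed almost wholly, to a log2 difference of 0.09 ± 0.057 (adjusted p = 0.195, 95% interval -0.03 to 0.20). ULK1 held 62.5, 62.2 and 67.7 CPM in control and 81.5, 84.5 and 78.9 CPM in knockdown at 1.5 h and rose by 0.35 ± 0.104 (adjusted p = 0.00694). At 3.5 h it stood at 55.3 ± 0.573 and 63.4 ± 5.93 CPM (SD, n = 3 each), a difference of 0.20 ± 0.107 that did not pass (adjusted p = 0.114).

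GABARAP, the founding member of its branch, was seen at few counts, with 2.11, 2.03 and 1.45 CPM in control and 3.85, 2.69 and 2.69 CPM in knockdown at 3.5 h. The groups did not overlap, and it rose by 0.72 ± 0.192 (adjusted p = 0.00234), but at 1.5 h the difference of 0.24 ± 0.170 did not pass (adjusted p = 0.233). MAP1LC3B, the LC3 form most used as an autophagosome marker, stood at 79.7 ± 1.86 and 84.7 ± 1.61 CPM at 1.5 h and at 95 ± 1.74 and 96.5 ± 2.35 CPM at 3.5 h (SD, n = 3 each). Its log2 difference was 0.09 at 1.5 h (adjusted p = 0.240) and 0.02 at 3.5 h (adjusted p = 0.756, 95% interval -0.10 to 0.15). MAP1LC3B2 differed by -0.03 ± 0.249 and 0.13 ± 0.260, below what its counts can resolve.

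**Figure D2:**
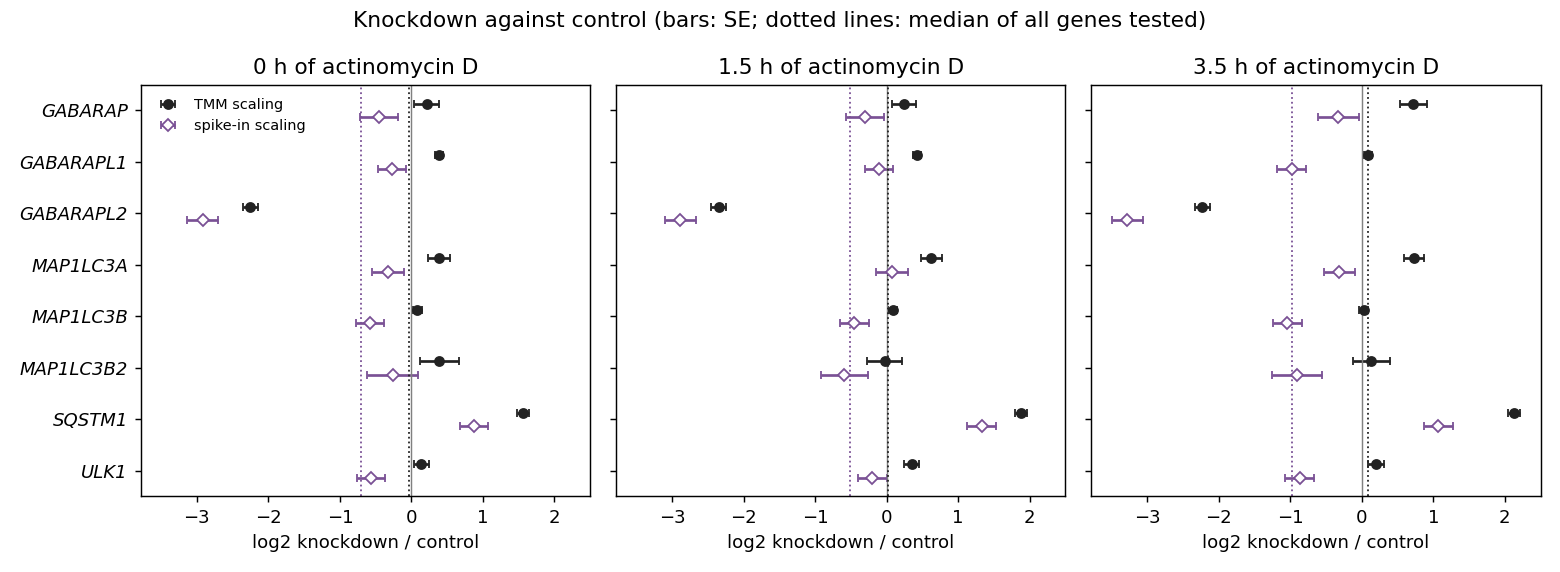
Log2 ratio of knockdown to control for each gene at 0, 1.5 and 3.5 h, under TMM scaling (filled circles) and under scaling to the spike-in RNA (open diamonds), with SE bars; dotted lines mark the median of all genes under each scaling. GABARAPL2 is left of 0 and SQSTM1 right of 0 in all 3 panels under both scalings, and the other 6 lie right of 0 under TMM and left of 0 under spike-in scaling at 3.5 h.

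The values above set each gene against the typical transcript of its library (TMM scaling). A second scale comes from ERCC spike-in RNA, which the protocol adds to purified RNA, so levels on that scale are comparable only if equal amounts of purified RNA were used, which the labels do not say. On that scale the median gene was lower in knockdown by a log2 difference of -0.71 at 0 h, -0.52 at 1.5 h and -0.98 at 3.5 h. GABARAPL2 was lower by -2.89 ± 0.217 at 1.5 h (adjusted p = 2.10e-37) and -3.28 ± 0.219 at 3.5 h (adjusted p = 1.30e-47). SQSTM1 was still higher, by 1.33 ± 0.199 (adjusted p = 7.25e-10) and 1.07 ± 0.199 (adjusted p = 2.12e-07), and these 2 genes kept their direction under both scalings. At 1.5 h the rises of GABARAPL1 (-0.11, adjusted p = 0.639), ULK1 (-0.20, adjusted p = 0.390) and MAP1LC3A (0.071, adjusted p = 0.798) did not pass on the spike-in scale. At 3.5 h the other 6 turned: GABARAPL1 (-0.98 ± 0.198), MAP1LC3B (-1.04 ± 0.199), ULK1 (-0.87 ± 0.20) and MAP1LC3B2 (-0.91 ± 0.345) were lower on the spike-in scale, with adjusted p of 1.75e-06, 4.68e-07, 2.93e-05 and 0.0125. GABARAP (-0.33 ± 0.290) and MAP1LC3A (-0.31 ± 0.220) did not pass there. The fit takes the summed ERCC counts of each library as known, and an error in them would be shared by all genes of that library. The p-values on this scale, here and for the changes over time below, do not account for that sharing. They cannot be ranked against those under TMM scaling.

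After transcription was blocked, the members split into faster and slower transcripts in control cells. On the spike-in scale, 31.8 ± 4.38% of SQSTM1, 32.9 ± 8.49% of GABARAP and 33.1 ± 5.20% of ULK1 was left at 3.5 h, relative to the mean control level at 0 h (SD, n = 3 each). The other ATG8 transcripts lasted longer, with 58.3 ± 8.68% of MAP1LC3A, 61.1 ± 10.7% of GABARAPL2, 63.6 ± 16.2% of MAP1LC3B2, 67.2 ± 11.2% of MAP1LC3B and 77.5 ± 13% of GABARAPL1 left. SQSTM1, GABARAP and ULK1 thus had the lowest percentages left, and GABARAPL1 the highest.

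In knockdown cells 47.2 ± 5.02% of GABARAPL1, 47.5 ± 11.9% of GABARAPL2, 48.7 ± 7.0% of MAP1LC3B and 40.2 ± 15.4% of MAP1LC3B2 was left at 3.5 h. The first knockdown library at 0 h stood at 128.0, 126.3, 130.4 and 134.7% of the 0 h mean for these genes in turn. Without it the percentages left would be higher. The log2 changes from 0 to 3.5 h without it were -0.87 ± 0.195, -0.88 ± 0.218, -0.80 ± 0.196 and -1.06 ± 0.369 (SE). MAP1LC3A stood at 59.4 ± 12.8%, GABARAP at 35.8 ± 10.8%, SQSTM1 at 36.4 ± 5.21% and ULK1 at 26.8 ± 3.95%. The percentages of GABARAP, MAP1LC3A and SQSTM1 were slightly above those of control and the other 5 below. From 0 to 3.5 h 6 of 8 members fell in control and 8 of 8 in knockdown, where 81.1% and 97.3% of all genes fell (81.7% passed in either direction in control), so these counts say little about the members. That change uses the 0 h libraries. It missed the threshold in control for GABARAPL1 (-0.37 ± 0.197, adjusted p = 0.0739) and MAP1LC3B2 (-0.66 ± 0.368, adjusted p = 0.0865).

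**Figure D3:**
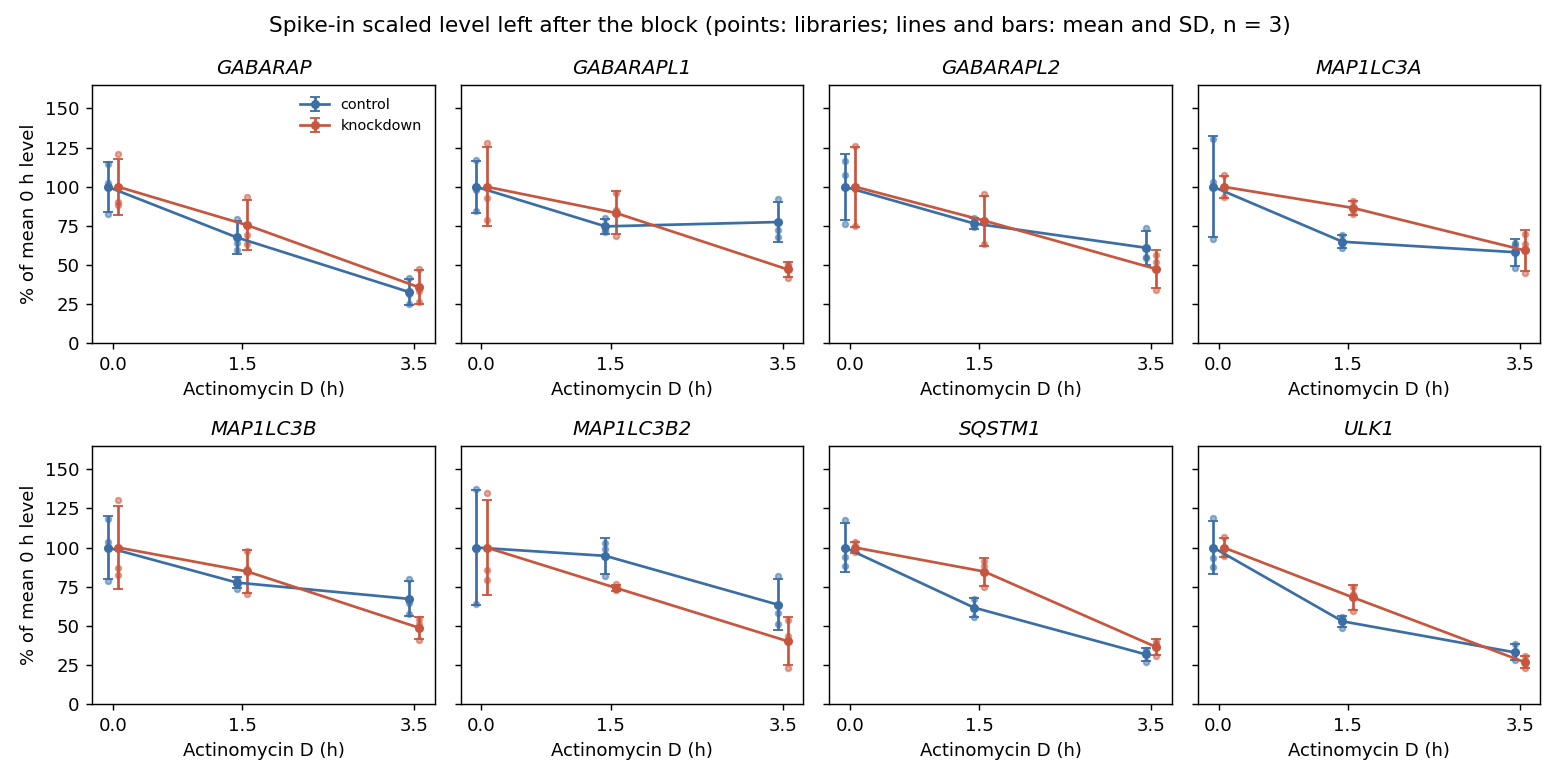
Spike-in scaled level of each gene, in percent of the mean 0 h level of the same genotype, against hours of actinomycin D, with libraries as small points and the mean and SD of 3 libraries as lines and bars, control in blue and knockdown in red. In control cells GABARAPL1 stays level from 1.5 h (74.7%) to 3.5 h (77.5%), while in knockdown it goes from 83.3% to 47.2%.

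Between 1.5 and 3.5 h, in libraries that the rule for the choice did not use, 3 of 8 members passed in control, all lower. Of all genes 45.4% passed there (2.46% higher, 42.9% lower). In knockdown 8 of 8 fell, where 91.5% of all genes did. The 3 were GABARAP (-1.05 ± 0.291, adjusted p = 0.00115), SQSTM1 (-0.96 ± 0.199, adjusted p = 9.93e-06) and ULK1 (-0.68 ± 0.199, adjusted p = 0.00232). GABARAPL1 differed by 0.05 ± 0.196 in control (adjusted p = 0.856) and fell by 0.82 ± 0.197 in knockdown (adjusted p = 5.90e-05). GABARAPL2 fell by 0.72 ± 0.213 in knockdown (adjusted p = 9.30e-04) and differed by -0.33 ± 0.198 in control (adjusted p = 0.170).

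The genotype difference in this change passed for 1 of 8 members, where it passed for 19.8% of all genes (1.12% higher, 18.7% lower). The member was GABARAPL1, with -0.87 ± 0.278 (adjusted p = 0.0166), beside a median of -0.49 over all genes. In 5 of the 12 fits that each left out 1 library it no longer passed, with adjusted p from 0.0511 to 0.0836, namely without control libraries 2 or 3 at 1.5 h, control library 2 at 3.5 h, knockdown library 3 at 1.5 h or knockdown library 3 at 3.5 h. ULK1 (-0.67 ± 0.280, adjusted p = 0.0681) and MAP1LC3B (-0.59 ± 0.278, adjusted p = 0.107) came next and did not pass. For GABARAPL2 the difference was -0.39 ± 0.290 (adjusted p = 0.305, 95% interval -0.96 to 0.17) and for SQSTM1 -0.26 ± 0.278 (adjusted p = 0.498, 95% interval -0.80 to 0.29).

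The authors' deposited table gives a half-life in hours per gene and genotype, with no error. In it GABARAPL1 went from 10.3 h in control to 3.47 h in knockdown, MAP1LC3B from 6.38 to 3.62 h, MAP1LC3B2 from 5.81 to 2.80 h and GABARAPL2 from 5.07 to 3.38 h. In the same authors' deposited table ULK1 stayed at 2.07 h in both, and GABARAP (2.38 and 2.59 h), MAP1LC3A (4.36 and 4.76 h) and SQSTM1 (2.22 and 2.82 h) were longer in knockdown. The medians over all genes of the authors' deposited table were 3.05 h in control and 2.56 h in knockdown. An exponential refit of the deposited levels returned the same half-lives and gives their errors: 10.3 ± 5.50 h and 3.47 ± 0.963 h for GABARAPL1, 5.07 ± 1.63 and 3.38 ± 1.0 h for GABARAPL2, and 2.22 ± 0.249 and 2.82 ± 0.496 h for SQSTM1 (SE, 9 libraries each). For MAP1LC3B they were 6.38 ± 2.25 and 3.62 ± 1.09 h and for MAP1LC3B2 5.81 ± 3.89 and 2.80 ± 0.796 h. The ranges of 1 SE around the half-lives in control and in knockdown overlap for every member except GABARAPL1. The knockdown half-lives include the first knockdown library at 0 h.

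The genes whose levels ran closest to GABARAPL2 over the 18 libraries, among 10730 with a mean of at least 5 CPM, were PPP3CA, the catalytic subunit of calcineurin (Pearson r 0.994), ADAM23, GRIA4, which encodes a glutamate receptor subunit, ANP32A and NFE2L3 (r 0.991 for the last). PPP3CA averaged 92.0 CPM in control and 32.6 CPM in knockdown at 0 h and 106.7 and 35.5 CPM at 3.5 h. Among the genes closest to SQSTM1 were COL1A1, a collagen chain (r 0.995), GDPD5, ACTC1, an actin of heart muscle, and TEAD3, a partner of YAP (r 0.992 for the last). COL1A1 averaged 188 and 980 CPM at 0 h and 133 and 1027 CPM at 3.5 h. These r describe libraries that share the gap between genotypes, the scaling and the depth.

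COL1A1 is also a marker of fibroblasts and stroma, so that list is given beside SQSTM1. Of 10 such markers 5 averaged at least 5 CPM in control and 6 in knockdown at 0 h. Their summed level ran from 688 to 749 CPM in control and from 1388 to 1833 CPM in knockdown, mainly through COL1A1, COL1A2 and TAGLN, while THY1 was lower in knockdown and LUM, DCN and COL3A1 were at or near 0 in every group. The summed level of 8 neural markers, chiefly NES, ran from 524 to 666 CPM in control and from 1174 to 1235 CPM in knockdown. Markers of mesoderm and endoderm summed to at most 2.52 CPM and of trophoblast to at most 10.7 CPM in any library. The part of these markers in the levels of SQSTM1 and GABARAPL2 was not tested.

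The genes around the members in the pathway moved in both directions. Rose and fell mean higher and lower in knockdown than in control at the same time. A gap at 3.5 h includes any difference in loss after the block, and the part of that loss was not tested. In these lists, which include no ATG8 gene and not SQSTM1, counts are of genes that passed at an adjusted p under 0.05 relative to the typical transcript. At 3.5 h 35% of all genes were higher and 26.4% lower on that scale, and 4.71% higher and 71.7% lower under spike-in scaling. In the ULK1 kinase complex (ULK1, ULK2, ATG13, RB1CC1 and ATG101) 2 of 5 rose and 0 fell at 3.5 h (median log2 difference 0.20), while under spike-in scaling 1 was higher and 4 lower. ATG101, a subunit that holds ATG13 in place, stood at 1.65 ± 0.530 CPM in control and 11 ± 0.130 CPM in knockdown at 3.5 h (SD, n = 3 each), up by 2.73 ± 0.21 (adjusted p = 8.80e-11), and its gap was only 0.35 ± 0.122 at 0 h. RB1CC1, the scaffold FIP200, rose by 0.44 ± 0.080 (adjusted p = 5.10e-05).

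Of 9 genes of the class III PI3-kinase complex and its regulators 6 rose and 2 fell at 3.5 h (median 0.63), against 1 higher and 5 lower under spike-in scaling. At 0 h 2 were higher and 3 lower relative to the typical transcript (median -0.08). At 3.5 h NRBF2, which binds ATG14, was higher in knockdown by 1.62 ± 0.194 and SH3GLB1, a membrane-bending partner of UVRAG, by 1.05 ± 0.071. UVRAG was lower by 0.59 ± 0.111 and RUBCN, an inhibitor of the complex, by 0.37 ± 0.115. At 0 h the differences were 0.24 ± 0.134 for NRBF2 (adjusted p = 0.146), 0.42 ± 0.069 for SH3GLB1, -0.45 ± 0.109 for UVRAG and -0.08 ± 0.112 for RUBCN. RUBCN changed sign between the times, as it was higher in knockdown at 1.5 h, by 0.29 ± 0.116 (adjusted p = 0.0379). From 0 to 3.5 h NRBF2 went from 12.2 to 2.67 CPM in control and from 14.3 to 8.20 CPM in knockdown. Among 10 genes of ATG9 and WIPI membrane supply 1 rose, WDR45 (0.61 ± 0.085), and 4 fell, among them ATG9A (-0.43 ± 0.098) and WIPI1 (-0.43 ± 0.099), against 0 and 10 under spike-in scaling. The median of that list was 0.07, beside 0.08 for all genes.

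The conjugation machinery that joins ATG8 proteins to lipid had 2 of 11 genes higher and 4 lower at 3.5 h (median -0.02), against 0 and 10 under spike-in scaling. ATG5, part of the complex that guides lipid transfer, rose by 0.88 ± 0.081 and ATG3, the conjugating enzyme, by 0.52 ± 0.075. ATG7, the activating enzyme, fell by 0.45 ± 0.095 and ATG16L2 by 0.30 ± 0.106. At 3.5 h ATG7 and ATG3, the enzymes of successive steps, thus differed in opposite directions relative to the typical transcript. At 0 h both were lower in knockdown, with -0.28 ± 0.096 for ATG7 and -0.21 ± 0.072 for ATG3. ATG5 (0.17 ± 0.077) and ATG16L2 (-0.37 ± 0.114) had the same signs at 0 h as at 3.5 h. Under spike-in scaling at 3.5 h ATG3 (-0.53, adjusted p = 0.0115) and ATG7 (-1.51, adjusted p = 2.40e-12) were both lower.

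Among 17 other autophagy receptors 6 rose and 3 fell at 3.5 h (median -0.01), against 1 and 13 under spike-in scaling. OPTN, which like SQSTM1 binds ubiquitin and ATG8 proteins, stood at 3.59 ± 0.916 CPM in control and 11.8 ± 0.672 CPM in knockdown at 0 h and at 7.15 ± 0.555 and 17.2 ± 0.560 CPM at 3.5 h (SD, n = 3 each). The log2 difference of OPTN was 1.72 ± 0.128 at 0 h, and it rose by 1.26 ± 0.112 at 3.5 h (adjusted p = 1.11e-09). RETREG1, the receptor for endoplasmic reticulum also called FAM134B, rose by 1.48 ± 0.172 and 2.44 ± 0.190. FKBP8 and RTN3, receptors for mitochondria and for reticulum tubules, fell by 0.26 ± 0.101 and 0.27 ± 0.055 at 3.5 h. SQSTM1, OPTN and RETREG1 were thus receptors that all rose, of which OPTN did not pass under spike-in scaling at 3.5 h (0.21, adjusted p = 0.381) and RETREG1 did (1.37, adjusted p = 6.83e-08).

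**Figure D4:**
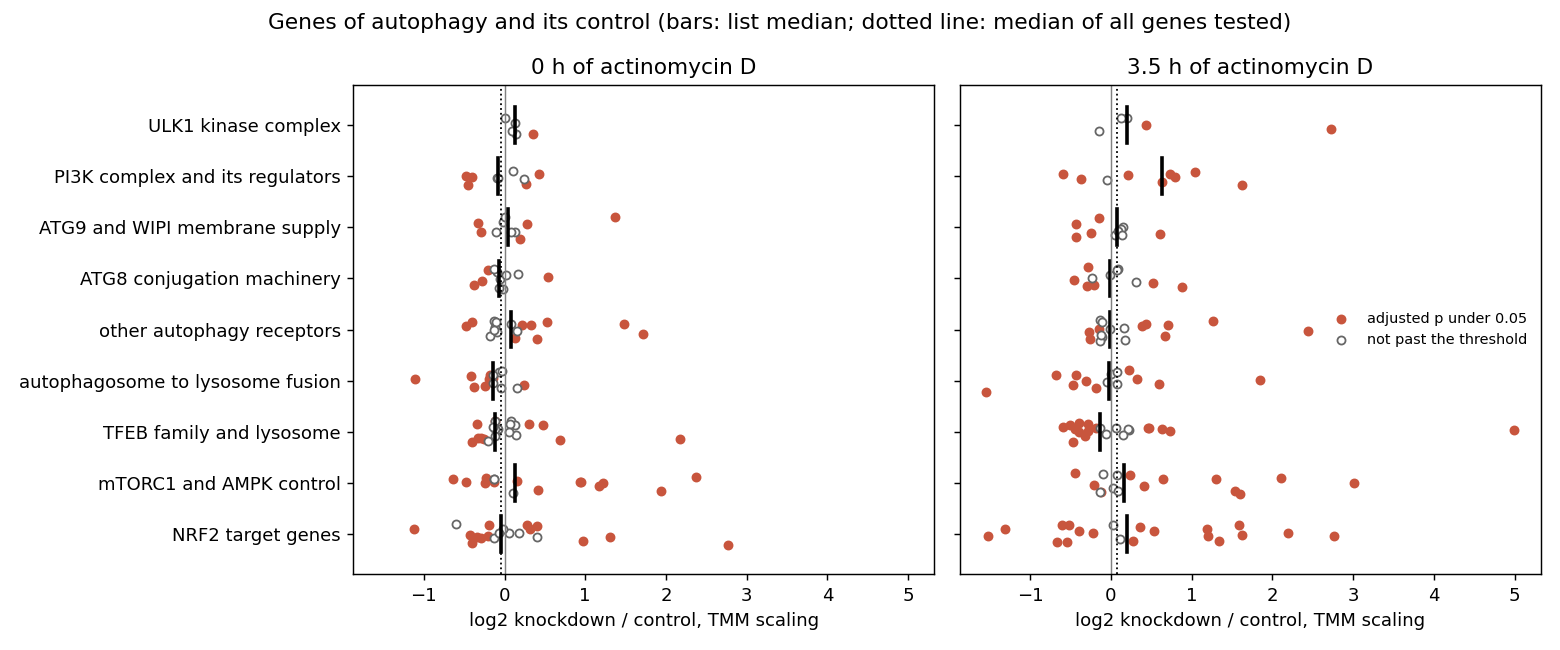
Log2 ratio of knockdown to control under TMM scaling for every gene of 9 pathway lists at 0 and 3.5 h, with genes that passed at an adjusted p under 0.05 in red, black bars at each list's median and a dotted line at the median of all genes. Points lie on both sides of 0 in 8 lists at 0 h and in all 9 at 3.5 h, and the list medians lie between -0.14 and 0.13 at 0 h and between -0.13 and 0.63 at 3.5 h.

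Of 14 genes for fusion of autophagosome and lysosome 4 rose and 6 fell at 3.5 h (median -0.03), against 0 and 13 under spike-in scaling. VPS39, a subunit of the HOPS tether, fell from 96.4 ± 2.17 to 44.8 ± 1.85 CPM at 0 h and from 123 ± 5.33 to 42.2 ± 2.37 CPM at 3.5 h (SD, n = 3 each), or by 1.11 ± 0.060 and 1.54 ± 0.061. TECPR1 fell by 0.68 ± 0.099 and SNAP29, a fusion SNARE, rose by 0.59 ± 0.093, while PLEKHM1 passed on only 7 counts in control and 28 in knockdown. In the TFEB family and its lysosomal targets 5 of 21 rose and 10 fell (median -0.13), against 1 and 18 under spike-in scaling. The cholesterol exporter gene NPC1 rose by 0.73 ± 0.057 and the proton pump subunit gene ATP6V1A fell by 0.60 ± 0.077. At 3.5 h MITF, a relative of TFEB, was counted 2 times over the control libraries and 80 times over the knockdown ones.

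Among 16 genes of mTORC1 and AMPK control 8 rose and 3 fell at 3.5 h (median 0.17), against 3 and 11 under spike-in scaling. DDIT4 and SESN2, both stress-induced inhibitors of mTORC1, stood at 1.26 ± 0.330 and 2.45 ± 1.09 CPM in control and at 10.2 ± 1.67 and 10.6 ± 1.24 CPM in knockdown at 3.5 h (SD, n = 3 each). They rose by 3.01 ± 0.254 (adjusted p = 4.57e-10) and 2.11 ± 0.208 (adjusted p = 6.21e-09), and both were also higher under spike-in scaling (1.99 and 1.01). AKT1S1, the mTORC1 subunit PRAS40, fell by 0.45 ± 0.095 and RHEB, the activator of mTORC1, by 0.21 ± 0.078.

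The NRF2 targets were included because SQSTM1 is one of them, and 10 of 20 rose and 8 fell at 3.5 h (median 0.20), against 3 and 13 under spike-in scaling. HMOX1, heme oxygenase 1, went from 34.8 ± 2.24 to 238 ± 19.9 CPM at 0 h and from 17.6 ± 2.41 to 120.2 ± 2.64 CPM at 3.5 h (SD, n = 3 each), a rise of 2.77 ± 0.080 and 2.77 ± 0.087. GCLM, a subunit of the enzyme that starts glutathione synthesis, rose by 0.98 ± 0.113 and 2.19 ± 0.127. AKR1C1, an aldo-keto reductase with close paralogs, so that its counts are less certain, stood at 2.83 ± 0.202 in control and 1.30 ± 0.317 CPM in knockdown at 0 h (SD, n = 3 each) and was also lower at 3.5 h (adjusted p = 9.66e-08). OSGIN1 fell by 1.31 ± 0.464 at 3.5 h (adjusted p = 0.0176), on only 35 counts in control and 15 in knockdown. At 1.5 h its difference was 0.07 ± 0.460 (adjusted p = 0.916). Targets of NRF2 thus moved in opposite directions, and SQSTM1 was among those that rose.

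At 0 h, where 52.1% of all genes passed (23.8% higher, 28.3% lower), the same lists read 1 higher and 0 lower of 5 for the ULK1 complex, 2 and 3 of 9 for the PI3-kinase complex, 3 and 2 of 10 for membrane supply and 1 and 3 of 11 for conjugation. They read 7 and 2 of 17 for the receptors, 1 and 7 of 14 for fusion, 4 and 6 of 21 for the TFEB family and lysosome, 8 and 5 of 16 for mTORC1 and AMPK and 6 and 7 of 20 for the NRF2 targets. Under spike-in scaling, where 5.58% of all genes were higher and 64.1% lower, they read 0 and 4, 0 and 6, 0 and 8, 0 and 10, 2 and 12, 0 and 12, 1 and 17, 3 and 9, and 2 and 13 in the same order. Without the first knockdown library at 0 h, singled out after seeing the data, the receptors read 6 and 8 and the ULK1 complex 2 and 0. In a fit to the 0 h groups alone, conjugation read 1 and 0, membrane supply 2 and 0 and fusion 0 and 2. There 3374 of 15802 genes were higher and 2975 lower, and the genes passing in each of the other lists changed by at most 1.5 times. These counts at 0 h come from the comparison by which the members were chosen and are given as a description.

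The stretch from 250 bases before to 50 after the start of each gene was found for 7 of the 8 members in RefSeq promoters (GRCh38.p14). The GABARAPL2 promoter was 69.0% G or C with 33 CpG and that of the 3 SQSTM1 starts which lies at 179820655 to 179820954 was 73.0% with 38 CpG, beside medians of 58.7% and 14 over 35116 promoters. The E-box CACGTG, which TFEB binds in longer motifs built on it, was found in 7.256% of all promoters and matched no member in this window, searching both strands. TGACNNNGC, the core of the element bound by NRF2, was found in 13.347% of promoters and matched MAP1LC3B once, from base -46 relative to the start. For SQSTM1, these letters were not in the windows of its 3 starts.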

How the data were processed

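Polyadenylated RNA of 18 libraries was sequenced on a BGISEQ platform, per the labels' protocols. The values deposited by the authors are unnormalized read counts of genes and ERCC transcripts. The submitters' processing notes name build hg38, featureCounts 2.0.3, SAMtools 1.12, HISAT2 2.2.1 and fastp 0.21.1. Neither the annotation release nor the strand setting is given in the sources used here. A second table deposited by the authors holds a length- and spike-in-scaled signal, half-lives in hours (other, a unit of its own) and the log2 ratio of the half-lives. Libraries held 0.0857% to 0.544% ERCC counts, and 27 ERCC transcripts had at least 10 counts in every library.

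Counts were tested with the quasi-likelihood F test of edgeR 4.0.16 (R 4.3.3) in one fit to the 18 libraries, after filterByExpr (16760 genes kept, 45100 removed), with Benjamini-Hochberg adjustment over all genes kept, a threshold of 0.05 and two-sided tests. Genotypes were compared under TMM scaling, and changes over time under scaling to the summed ERCC counts. The common biological coefficient of variation was 6.29% and 16.3%. SEs are the change divided by the square root of F, and 95% intervals are 1.96 SE on each side. Levels are TMM-scaled CPM and their errors SDs. Half-lives were refitted by nonlinear least squares. Depth limits precision most for GABARAP and MAP1LC3B2. Gene coordinates and sequences come from GENCODE v29 and promoters from RefSeq. Symbols were found for 61757 genes, and of 23 genes in the TFEB list 22 matched.

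The members and lists were chosen with earlier results of these data known. Named genes are the members, NAT10, for each list the 2 largest rises and 2 largest falls that passed at 3.5 h, and the 5 genes with the highest correlation (log2 CPM with a prior count of 1) with GABARAPL2 and SQSTM1. A few genes that this rule names are not reported here. Single marker genes were named after their values were seen. Alternatives were the other scaling, DESeq2 1.42.0 size factors and its Wald test, a fit without the filter, the replicate number as a block, a fit to the groups compared, and each library left out in turn. The procedure was run on simulated counts. For the changes over time the simulated ERCC counts followed the scaling without error, so that run could not show the effect of spike-in error. The replicate pairs of every group differed by more than sampling noise.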

Additional observations from a re-analysis of the deposited data

Results flagged for a closer look

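GABARAPL1 was the one member whose change between 1.5 and 3.5 h of actinomycin D differed between genotypes by the test of that difference, with -0.87 ± 0.278 on the log2 scale (edgeR quasi-likelihood test, adjusted p = 0.0166). In control libraries 71.4% to 80.2% was left at 1.5 h and 68.0% to 92.4% at 3.5 h, and in knockdown libraries 68.6% to 95.9% and 41.5% to 50.8%. The ERCC share of the counts, which sets this scale, ran from 0.148% to 0.163% and from 0.173% to 0.237% in these control libraries and from 0.219% to 0.295% and from 0.427% to 0.544% in the knockdown libraries. Its part in the difference was not tested. Under TMM scaling, which does not use the ERCC counts, the difference was -0.34 (adjusted p = 0.00233).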

How the results depend on the processing

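GABARAPL2 kept its fall and SQSTM1 its rise, on the same side of the threshold at 1.5 and 3.5 h, under every alternative run. The sign of the smaller differences follows the scaling. Under ERCC scaling the knockdown differences turned negative for GABARAP (-0.45, -0.30 and -0.33 at 0, 1.5 and 3.5 h), GABARAPL1 (-0.27, -0.11 and -0.98), MAP1LC3A (-0.32 at 0 h and -0.31 at 3.5 h), MAP1LC3B (-0.58, -0.45 and -1.04), ULK1 (-0.56, -0.20 and -0.87) and MAP1LC3B2 (-0.26 at 0 h and -0.91 at 3.5 h), and the calls of GABARAPL1 and ULK1 at 1.5 h were lost. MAP1LC3A at 1.5 h no longer passed on that scale (0.071, adjusted p = 0.798). MAP1LC3B at 3.5 h was also -0.029 with DESeq2's size factors and -0.029 in its Wald test, and -0.019 in a fit to the compared groups.

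Under TMM scaling, which removes the common fall, many changes over time turned positive. The falls from 1.5 to 3.5 h of ULK1 in control (-0.21, adjusted p = 0.0948) and GABARAP in knockdown (-0.10, adjusted p = 0.718) no longer passed, and GABARAPL1 in control did (0.51, adjusted p = 6.69e-08). From 1.5 to 3.5 h they were 0.13, 0.31 and 0.25 in control for GABARAPL2, MAP1LC3A and MAP1LC3B and 0.17, 0.25, 0.42, 0.19 and 0.039 in knockdown for GABARAPL1, GABARAPL2, MAP1LC3A, MAP1LC3B and MAP1LC3B2. From 0 to 3.5 h they were 0.76, 0.42, 0.38, 0.55 and 0.45 in control for GABARAPL1, GABARAPL2, MAP1LC3A, MAP1LC3B and MAP1LC3B2, and in knockdown 0.45, 0.44, 0.72, 0.50 and 0.19 for the same genes, 0.024 for GABARAP and 0.038 for SQSTM1. The genotype difference in the change from 1.5 to 3.5 h became 0.48 for GABARAP, 0.12 for GABARAPL2, 0.11 for MAP1LC3A, 0.16 for MAP1LC3B2 and 0.25 for SQSTM1, none past the threshold. Over all genes, TMM scaling gave 3492 calls for the change from 1.5 to 3.5 h in knockdown, 8027 for 0 to 3.5 h, and 4997 (3064 higher, 1933 lower) for the genotype difference, which had 2154 with no filter on low counts.

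Leaving out 1 library at a time gave 1568 (without control replicate 2 at 3.5 h) to 5029 calls (without knockdown replicate 2 at 1.5 h) for that difference. MAP1LC3B2 ran from -0.19 to 0.067 at 1.5 h and from -0.067 to 0.34 at 3.5 h, GABARAPL1 from -0.093 to 0.14 in control between 1.5 and 3.5 h, and the genotype difference of GABARAP from -0.28 to 0.17. The fall from 1.5 to 3.5 h in knockdown no longer passed for MAP1LC3A (adjusted p = 0.121) and MAP1LC3B2 (0.0985) without knockdown replicate 3 at 3.5 h. Without control replicate 2 at 0 h or at 3.5 h, the change from 0 to 3.5 h in control passed for GABARAPL1 (adjusted p = 0.0322 and 0.0227) and MAP1LC3B2 (0.0271 and 0.0419). The genotype difference of ULK1 passed in DESeq2's Wald test (adjusted p = 0.0239), in a fit to the compared groups (0.0265) and without control replicate 1 at 3.5 h (0.0337) or knockdown replicate 2 at 1.5 h (0.0348), and that of MAP1LC3B in a fit to the compared groups (0.0498) and without the latter library (0.0473). ULK1 at 3.5 h passed with no filter (adjusted p = 0.0358) and in a fit to the compared groups (0.0112), and without knockdown replicate 2 at 3.5 h (0.0459), and with any other library left out its adjusted p was up to 0.310. The cause was not tested.

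The replicate numbers did not pair the libraries: the correlation of same-numbered libraries' deviations from their group means ran from -0.29 to 0.22, and 6 of 18 libraries correlated best with one of their own number. With the replicate number as a block 9113 genes passed at 1.5 h, 10244 at 3.5 h and 3263 for the genotype difference, and no member's call changed. Depth limits GABARAP and MAP1LC3B2 most.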
